A study of Mus musculus with 28 samples.

Results

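Cish, Socs1, Socs2, Socs3, Pim1 and Pim2 are genes that cytokines switch on and whose products feed back on cytokine signalling. They were taken as a list of 6 names, and all 6 were present among the 21614 and 20603 gene names of the bulk count tables and the 27933 of the single-cell table. The cells were CD8+ tumour-infiltrating T cells of wild-type C57BL/6 mice bearing MC38-OVA tumours, a mouse colon carcinoma line that carries ovalbumin as a model antigen. In the subset experiment, cells negative for the inhibitory receptor PD-1 were sorted as naive-like (CD62LhiSlamf7-CX3CR1-, n = 6), memory-like (CD62L-Slamf7hiCX3CR1-, n = 5) and effector-like (CD62L-Slamf7hiCX3CR1+, n = 3). For the treatment experiment, cells lacking both inhibitory receptors (Tim-3-PD-1-, DN for double-negative) and cells bearing both (Tim-3+PD-1+, DP for double-positive) were sorted on day 12 after tumour implantation from mice given isotype control antibodies or blockade with antibodies to PD-1 and Tim-3, with 3 libraries in each of the 4 groups. A single-cell library of DN cells was made from each treatment.

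A cytokine that binds its receptor activates receptor-bound JAK kinases, which phosphorylate STAT transcription factors, and STATs switch on the SOCS genes. The proteins made from Cish, Socs1, Socs2 and Socs3 then bind the receptor or the JAK and dampen the signal, with Cish and Socs2 known as targets of STAT5, which interleukin-2, interleukin-7 and interleukin-15 activate, Socs3 as a target of STAT3 and Socs1 as a target of interferon signalling. Pim1 and Pim2 encode serine/threonine kinases that cytokines induce, that need no activating phosphorylation step and that promote growth and survival of lymphocytes.

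The promoters differ in the letters that STATs and interferon regulatory factors are known to bind. RefSeq windows of GRCm38.p6, from 250 bases before to 50 after a transcription start, were held for 5 of the 6 genes; Socs2 had none. They were searched on both strands for the STAT palindrome TTCNNNGAA, which reads the same on both strands and occurs in 8.30% of 32851 windows, and for the repeat of interferon regulatory factors, GAAA followed after any 2 bases by GAAA, which occurs in 3.44%. The stretch around the Cish start and the bases before the Socs3 and Socs1 starts are shown because Cish and Socs3 moved in opposite directions in the results below and Socs1 moved with Socs3; capitals mark the matches.
Cish, chr9:107296654-107296683, plus strand: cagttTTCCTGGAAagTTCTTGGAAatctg
Socs3, chr11:117969367-117969616, minus strand: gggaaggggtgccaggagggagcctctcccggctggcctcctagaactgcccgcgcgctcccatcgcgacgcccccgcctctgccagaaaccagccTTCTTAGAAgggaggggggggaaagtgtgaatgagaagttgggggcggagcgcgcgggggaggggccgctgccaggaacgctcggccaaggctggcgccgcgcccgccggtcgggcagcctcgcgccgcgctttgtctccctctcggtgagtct
Socs1, chr16:10785537-10785786, minus strand: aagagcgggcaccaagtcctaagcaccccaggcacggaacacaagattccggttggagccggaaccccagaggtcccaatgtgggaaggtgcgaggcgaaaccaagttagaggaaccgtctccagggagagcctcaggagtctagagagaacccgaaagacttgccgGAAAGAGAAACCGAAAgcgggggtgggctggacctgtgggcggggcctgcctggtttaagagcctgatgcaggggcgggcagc
Cish held 2 STAT palindromes in tandem, at positions 1 and 12 from the start, and 0.457% of all windows held at least 2. Socs3 held 1, at position -154. Socs1 held 2 overlapping matches of the GAAA repeat, at positions -83 and -77, and no STAT palindrome. The windows of Pim1 (2 starts) and Pim2 held neither motif. A match is a run of letters, not a shown binding site.

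The subset libraries held 5027110 to 7978200 counts and the treatment libraries 8005820 to 13579300, and the ribosomal RNA gene Rn45s took 10.7 to 20.7% and 11.4 to 18.8% of them. Its share moved with the groups: the effector-like libraries had 10.7 to 14.1%, those of memory-like cells 12.6 to 17.4% and the naive-like ones 17.8 to 20.7%, and in the treatment experiment it was 12.6 to 18.1% and 17.7 to 18.8% in DN cells after isotype and blockade and 13.3 to 14.5% and 11.4 to 15.04% in DP cells. With Rn45s left out of the counts and library totals, no call of the 6 genes changed. All 6 genes passed the filter on low counts in both experiments. Levels are given as CPM, a gene's counts relative to the total of its library after TMM scaling, and fold changes as log2 ± SE with a Benjamini-Hochberg adjusted p over all genes tested (edgeR quasi-likelihood test), called at an adjusted p under 0.05. Summed markers of core T cells lay at 3153 to 5428 CPM in all bulk libraries. Naive-like libraries are named with 1 date and all other subset libraries with another, which cannot be told apart from the subset. Several numbers stand in the names of effector-like replicates 1 and 2, which may be pools, and the number of replicate 3 is among those of replicate 2. DN and DP libraries of a treatment share numbers in their names, and the labels do not say whether a number marks a mouse. The DP to DN tests have no block, and a block by that number changed no call of the 6 genes. Subset libraries of different groups share numbers in their names too, and the subset tests have no block. Between memory-like and naive-like cells a block by that number changed no call of the 6 genes, but 186 in place of 683 genes were called. Nothing states that libraries of a group came from separate mice, so p-values measure only the spread between libraries. In bulk, fewer expressing cells and less RNA per cell cannot be told apart.

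Cish rose along the subsets from naive-like through memory-like to effector-like cells. It lay between 49.8 and 90.1 CPM (median 73.1) in the 6 naive-like libraries, at 183, 93.3, 109.8, 216 and 143 CPM in memory-like replicates 1 to 5, and at 286, 270.3 and 544 CPM in effector-like replicates 1 to 3. The 3 groups did not overlap, and effector-like replicate 3 stood well above the other two. The means were 70.1 ± 16.1 (SD, n = 6), 149 ± 50.8 (SD, n = 5) and 367 ± 154 CPM (SD, n = 3). Cish was higher in effector-like than in naive-like cells by 2.39 ± 0.27 log2 units (adjusted p = 3.92e-05), in memory-like than in naive-like cells by 1.09 ± 0.24 (adjusted p = 0.0173), and against memory-like cells the effector-like excess was 1.298 ± 0.29 (adjusted p = 0.0289). The effector-like to memory-like call was lost without effector-like replicate 3 (0.90, adjusted p = 0.204) and without memory-like replicate 2, 3 or 5 (adjusted p of 0.0575, 0.0760 and 0.0586), and the memory-like to naive-like call without memory-like replicate 1 or 4 (adjusted p of 0.0530 and 0.0505).

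Socs2, the other STAT5-induced inhibitor, gave few counts and was uneven between libraries. Its level was 18.4, 22.5 and 42.0 CPM in the effector-like libraries, 22.6, 0.37, 39.4, 15.4 and 19.99 CPM in memory-like replicates 1 to 5, and 0 to 8.34 CPM (median 3.15) in the naive-like libraries. All effector-like libraries lay above all naive-like ones, and memory-like replicate 2 lay among the naive-like values. Naive-like replicate 2 had no Socs2 count, which allows a level of up to 0.434 CPM. The differences from naive-like cells, 3.09 ± 0.99 log2 units in effector-like (adjusted p = 0.0823) and 2.59 ± 0.91 in memory-like cells (adjusted p = 0.112), missed the threshold. Both passed it with the DESeq2 Wald test (adjusted p of 0.0219 and 0.0278), and the second did so without memory-like replicate 2 (adjusted p = 0.0392).

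Socs3, the inhibitor that acts on receptors sharing the Il6st chain, ran the other way. It lay between 742 and 1079 CPM (median 927) in naive-like cells, at 443, 438, 403, 428 and 470.4 CPM in memory-like replicates 1 to 5 and at 320.3, 314 and 474 CPM in the effector-like libraries. Every naive-like library lay above every other library, while memory-like and effector-like cells overlapped. Socs3 fell by 1.29 ± 0.16 log2 units from naive-like to effector-like (adjusted p = 6.72e-05) and by 1.04 ± 0.13 from naive-like to memory-like cells (adjusted p = 0.000406). Between effector-like and memory-like cells the difference was -0.24 ± 0.15 (adjusted p = 0.626, 95% interval -0.57 to 0.08).

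Socs1, which binds JAK kinases directly, was likewise highest in naive-like cells. It lay between 105 and 187 CPM (median 124.7) in naive-like cells, at 59.6, 68.6, 73.4, 87.7 and 63.8 CPM in memory-like cells and at 48.5, 59.7 and 96.8 CPM in effector-like cells. The naive-like libraries again lay above all others. Socs1 fell by 0.96 ± 0.23 log2 units to effector-like (adjusted p = 0.0193) and by 0.91 ± 0.19 to memory-like cells (adjusted p = 0.0126). The effector-like call was lost without effector-like replicate 1 or 2 (adjusted p of 0.126 and 0.110).

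Of the kinases, Pim2 fell in the effector-like subset and Pim1 was called in no comparison of subsets. Pim2 was at 80.0, 65.7 and 85.5 CPM in effector-like cells, at 229, 200.3, 129, 203 and 175 CPM in memory-like replicates 1 to 5 and between 227 and 276 CPM (median 249) in naive-like cells. No effector-like library reached the lowest value of either other group, and memory-like replicate 1 reached the naive-like range. Against naive-like cells the effector-like difference of Pim2 was -1.71 ± 0.17 log2 units (adjusted p = 1.18e-05), and against memory-like cells -1.28 ± 0.17 (adjusted p = 0.000729). Memory-like cells differed from naive-like cells by -0.42 ± 0.14 (adjusted p = 0.0840; 0.0409 with DESeq2). Pim1 lay between 10.49 and 24.2 CPM in all 14 libraries, its groups overlapped in every comparison, and its largest difference was -0.28 ± 0.29 (adjusted p = 0.667).

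**Figure D1:**
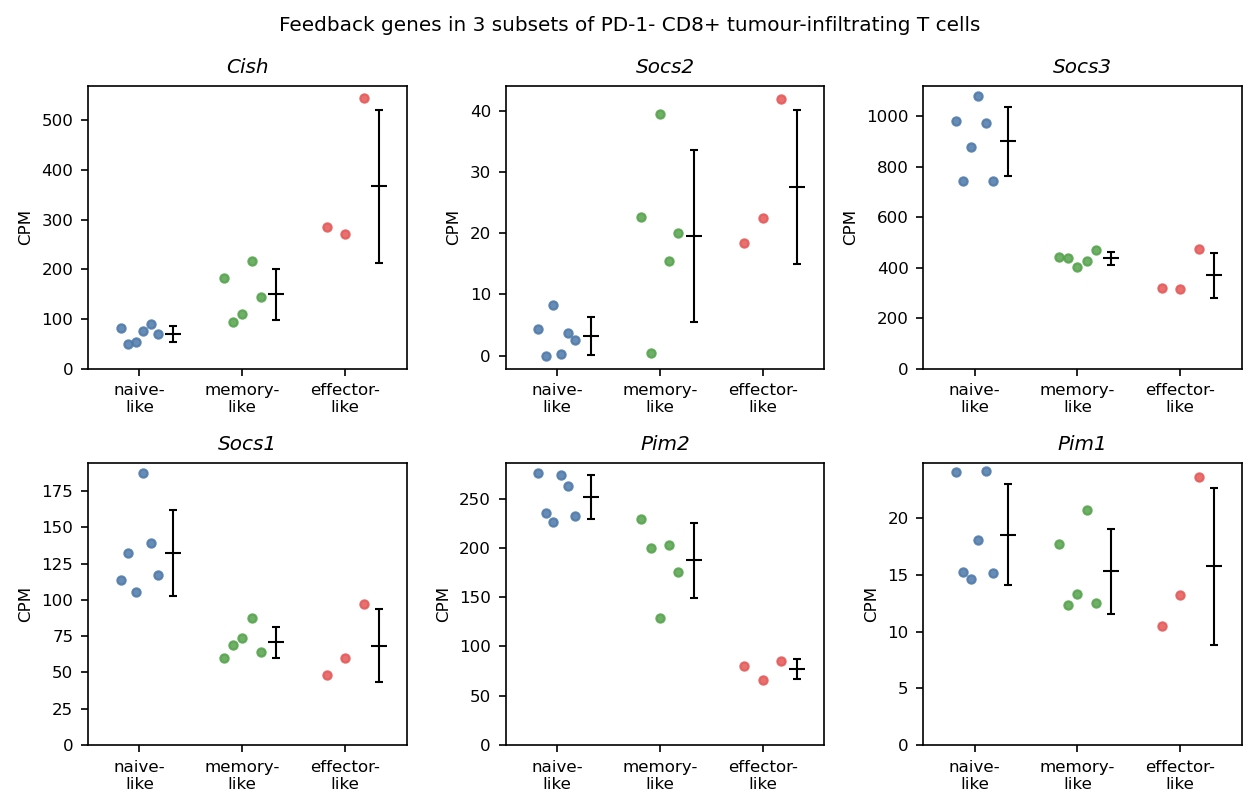
CPM of each gene (linear axis, a scale of its own per panel) in each library of the naive-like (n = 6), memory-like (n = 5) and effector-like (n = 3) cells; points are libraries and bars the mean ± SD. Cish means run from 70.1 to 367 CPM from naive-like to effector-like cells, while Socs3 means run from 900.4 down to 369 CPM.

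Counted over the list, 2 of 6 genes were called between effector-like and memory-like cells (Cish higher, Pim2 lower), where 1.91% of all genes were called. Between effector-like and naive-like cells 4 of 6 were called (Cish higher, Socs1, Socs3 and Pim2 lower) against 6.42% of all genes, and between memory-like and naive-like cells 3 of 6 (Cish higher, Socs1 and Socs3 lower) against 5.51%. Without memory-like replicate 2 and naive-like replicates 4 and 6, which stood apart from their groups in an earlier analysis of these data, the 3 counts were 1, 5 and 4: Cish was not called between effector-like and memory-like cells (1.16, adjusted p = 0.0551) and Socs2 was called higher than in naive-like cells in both other comparisons (adjusted p of 0.0341 and 0.0496). The median log2 change of the 6 was -0.01, -0.60 and -0.35, and that of all genes 0.01, 0.04 and -0.01. Sums of marker lists also varied between the subsets, given here for effector-like, memory-like and naive-like libraries in turn. Tumour and stroma markers lay at 983 to 2331, 766 to 1392 and 336 to 2116 CPM. Plasmacytoid dendritic cell markers lay at 192 to 281, 558 to 2318 and 182 to 668 CPM. Cycling markers, which T cells can carry themselves, lay at 233 to 502, 398 to 866 and 42.8 to 263 CPM. The tumour and stroma list holds Vim and the plasmacytoid dendritic cell list Irf8, Bst2 and Ccr9, which T cells also express. The part of these marker sums in the results was not tested.

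The receptors of the same pathway moved in both directions between subsets. Of 22 receptor genes tested, 3 were higher and 5 lower in effector-like than in naive-like cells. The higher ones were Il10ra, the interleukin-10 receptor chain that signals through STAT3 (log2 change 2.29 ± 0.22, adjusted p = 9.17e-06), Il12rb2 (2.07 ± 0.30, adjusted p = 0.000425) and Il2ra, the alpha chain that raises affinity for interleukin-2, which rose from 2.95 ± 3.42 to 25.98 ± 6.47 CPM (3.13 ± 0.69, adjusted p = 0.0110). Il7r, the interleukin-7 receptor, fell from 584 ± 136 to 158 ± 56.6 CPM (-1.89 ± 0.24, adjusted p = 0.000103), and the interleukin-4 and interleukin-6 receptor genes Il4ra and Il6ra also fell (-1.31 ± 0.21 and -3.22 ± 0.55, adjusted p of 0.00113 and 0.00173). Il2rb, the signalling chain for interleukin-2 and interleukin-15, was not called (-0.12 ± 0.17, adjusted p = 0.782). Of 11 JAK and STAT genes, Tyk2 was called higher and Jak3 lower, and no STAT gene was called. Of 23 other STAT target genes, 6 were higher and 3 lower; Gzmb, a cytotoxic protease, rose by 4.03 ± 0.45 and Bcl2l1, a survival gene, by 2.03 ± 0.24 log2 units (adjusted p of 3.38e-05 and 5.28e-05), while Myc, a growth regulator, fell by 2.43 ± 0.21 (adjusted p = 2.33e-06). Of 17 other inhibitors and family members, Pim3, the third Pim kinase, and the ubiquitin ligase gene Cblb fell and none rose; of 6 ligand genes tested, Ifng alone was called, higher. Between memory-like and naive-like cells, 12 of the 79 pathway genes tested were higher and 10 lower, and between effector-like and memory-like cells 3 were higher and 4 lower.

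In the treatment experiment the same genes separated DN from DP cells. Cish was at 136, 97.6 and 67.8 CPM in DN isotype replicates 1 to 3, at 317, 259 and 364 CPM in DP isotype replicates, at 161, 144 and 211 CPM in DN blockade replicates and at 291, 237 and 309 CPM in DP blockade replicates. All DP libraries lay above all DN libraries. Cish was higher in DP than in DN cells by 1.64 ± 0.23 log2 units after isotype (adjusted p = 0.000191) and by 0.70 ± 0.22 after blockade (adjusted p = 0.0360). The call after blockade was lost without DN blockade replicate 1 or 2 or DP blockade replicate 1 or 3 (adjusted p of 0.102, 0.121, 0.0829 and 0.0955).

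Socs2 was at 7.24, 13.9 and 7.84 CPM in DN isotype, 31.8, 18.3 and 23.4 CPM in DP isotype, 14.4, 15.9 and 15.3 CPM in DN blockade and 22.2, 18.4 and 19.9 CPM in DP blockade libraries. The DP libraries lay above the DN libraries of the same treatment in both cases. The difference was 1.34 ± 0.26 log2 units after isotype (adjusted p = 0.00170) and 0.41 ± 0.25 after blockade (adjusted p = 0.2503, 95% interval -0.13 to 0.95).

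Socs3, Socs1 and Pim2 were lower in DP than in DN cells under both treatments. Socs3 was at 541, 671 and 449.6 CPM in DN isotype, 409, 539 and 315 CPM in DN blockade, 137, 108 and 149 CPM in DP isotype and 146, 147 and 148 CPM in DP blockade libraries. Every DP library lay below every DN library, and the difference was -2.08 ± 0.20 log2 units after isotype and -1.52 ± 0.19 after blockade (adjusted p of 1.01e-05 and 0.000135). Pim2 was at 117, 144 and 106 CPM in DN isotype, 88.2, 149 and 78.7 CPM in DN blockade, and between 33.4 and 41.8 CPM in the 6 DP libraries. Its DP libraries too lay below every DN library, and its differences were -1.74 ± 0.21 and -1.46 ± 0.21 (adjusted p of 7.59e-05 and 0.000357). Socs1 was at 70.9, 88.9 and 64.3 CPM in DN isotype, 55.3, 83.4 and 64.7 CPM in DN blockade, 32.4, 36.6 and 45.8 CPM in DP isotype and 39.7, 52.6 and 47.9 CPM in DP blockade libraries. All its DP libraries lay below all its DN libraries, with differences of -0.96 ± 0.19 (adjusted p = 0.00185) and -0.53 ± 0.18 (adjusted p = 0.0474). The Socs1 call after blockade was lost without a filter on low counts (adjusted p = 0.0556) and in 5 of the 6 fits that left out 1 library, all but the one without DN blockade replicate 1 (adjusted p of 0.0293 to 0.191). Pim1 lay between 6.45 and 19.99 CPM in all 12 libraries and its DN and DP libraries overlapped under both treatments.

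**Figure D2:**
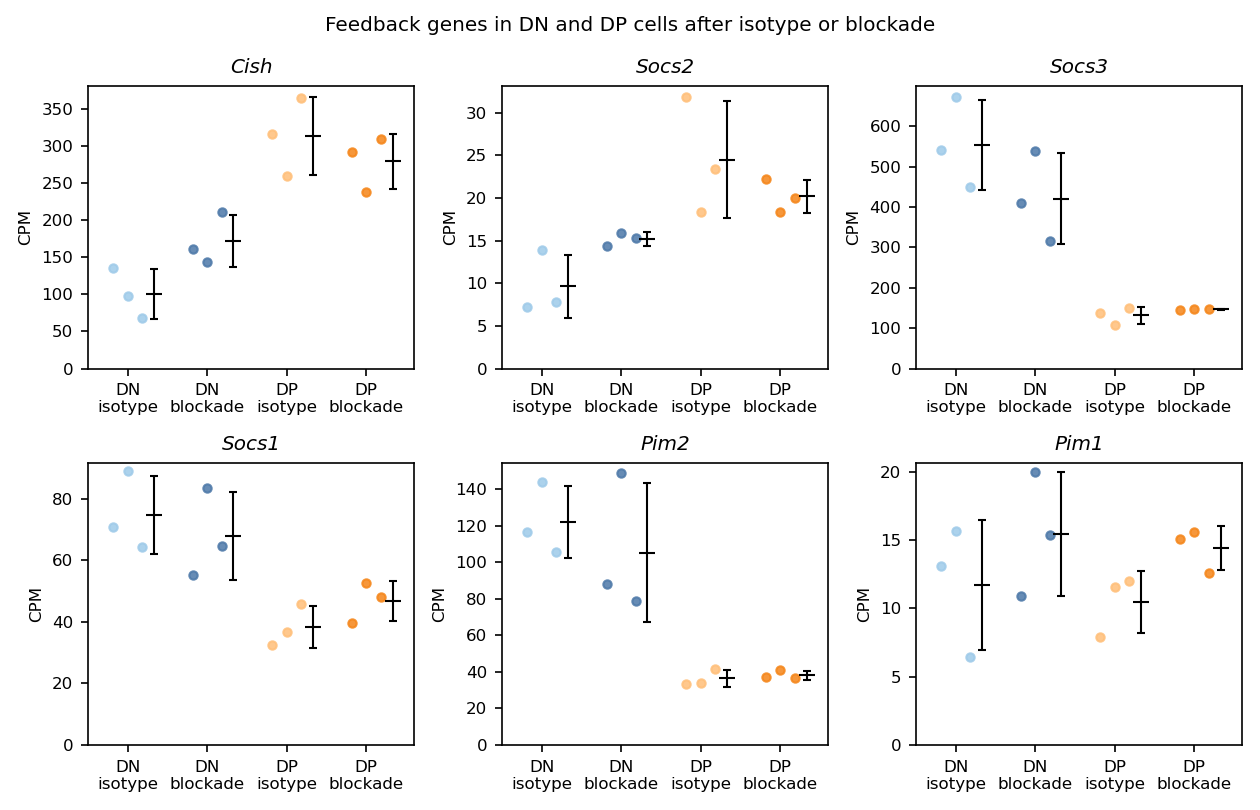
CPM of each gene (linear axis, a scale of its own per panel) in each of the 3 libraries of DN and DP cells after isotype or blockade; points are libraries and bars the mean ± SD. Cish is higher and Socs3, Socs1 and Pim2 are lower in all 6 DP than in all 6 DN libraries, and Pim1 overlaps.

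Of the 6 genes, 5 were called between DP and DN cells after isotype (Cish and Socs2 higher, Socs1, Socs3 and Pim2 lower) where 29.9% of all genes were called, and 4 after blockade (Cish higher, Socs1, Socs3 and Pim2 lower) where 27% were. Of the 81 other pathway genes tested, 18 were higher and 26 lower after isotype and 19 higher and 24 lower after blockade. Of 22 receptor genes, 6 were higher and 10 lower in DP cells after isotype. Il2ra was higher at 74.3 ± 12.6 against 7.24 ± 3.82 CPM (log2 difference 3.37 ± 0.34, adjusted p = 1.81e-05), as were Il10ra (1.06 ± 0.15, adjusted p = 0.000198), Il12rb2 (1.47 ± 0.22, adjusted p = 0.000320) and Il2rb, at 1157 ± 101.3 against 776 ± 82.1 CPM (0.58 ± 0.11, adjusted p = 0.00183). The lower ones included Lifr, the receptor of leukaemia inhibitory factor, at 4.42 ± 0.12 against 139.6 ± 29.7 CPM (-4.98 ± 0.25, adjusted p = 2.65e-07), the interferon receptor gene Ifnar2 (-1.38 ± 0.12, adjusted p = 4.31e-06), Il7r, at 112 ± 23.96 against 399 ± 58.8 CPM (-1.84 ± 0.15, adjusted p = 4.31e-06), and Il4ra (-1.85 ± 0.16, adjusted p = 4.73e-06). Stat5a and Stat5b, the STATs known to act on Cish, were not called, at -0.21 ± 0.13 and -0.39 ± 0.17 (adjusted p of 0.264 and 0.113), nor was Stat4, at -0.28 ± 0.11 (adjusted p = 0.0668), and Stat3 was higher by 0.68 ± 0.14 (adjusted p = 0.00272). Marker sums moved with these groups, given here for DN after isotype, DN after blockade, DP after isotype and DP after blockade in turn. Plasmacytoid dendritic cell markers lay at 2172 to 3170, 1350 to 2044, 409 to 413 and 500.2 to 594 CPM. That list holds Irf8 and Bst2, which T cells also express, and Ccr9, a leading gene of the naive T cell-like single-cell cluster described below. B cell markers lay at 65.9 to 99.2, 47.1 to 69.8, 5.09 to 6.53 and 2.60 to 6.34 CPM, and cycling markers at 260 to 727, 501 to 765, 1902 to 1923 and 1873 to 1989 CPM. Their part in the results was not tested.

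Blockade itself called none of the 6 genes in DN cells, where 1.12% of all genes were called (142, and 22 to 229 with 1 library left out), and none in DP cells, where 0.0629% were. At an unadjusted p under 0.05, 1981 and 909 of 12710 genes differed in the edgeR fit, among them 2 of the 6 in DN cells (Cish and Socs2) and none in DP cells. DESeq2 called 522 and 49 genes, of which Cish in DN cells was the only one of the 6. In DN cells the 3 isotype libraries ended at 136 CPM of Cish and the 3 blockade libraries began at 144 CPM, without overlap, a difference of 0.78 ± 0.23 log2 units (adjusted p = 0.121; 0.0170 with DESeq2; 95% interval 0.29 to 1.27). Socs2 was also separate in DN cells, at most 13.9 CPM after isotype and at least 14.4 CPM after blockade, a difference of 0.65 ± 0.26 (adjusted p = 0.241). The other 4 genes overlapped in DN cells, with differences from -0.40 ± 0.19 for Socs3 to 0.39 ± 0.31 for Pim1. In DP cells Cish differed by -0.17 ± 0.22 (adjusted p = 0.941, 95% interval -0.65 to 0.32), and Pim1 alone did not overlap, at 7.88 to 12.0 CPM after isotype and 12.6 to 15.6 CPM after blockade (0.46 ± 0.31, adjusted p = 0.834).

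The difference between the blockade effects in DP and DN cells was tested as an interaction, which called none of the 6 genes and 0 (0%) of all 12710 with edgeR. At an unadjusted p under 0.05 there were 1070 genes, Cish and Socs2 among them, and DESeq2 called 98 genes and none of the 6. It was -0.95 ± 0.32 log2 units for Cish (adjusted p = 0.416, 95% interval -1.63 to -0.26) and -0.93 ± 0.35 for Socs2 (adjusted p = 0.501). These contrasts use the same 12 libraries as the DP to DN differences above. Of the 81 pathway genes, 3 were higher and 4 lower after blockade in DN cells, among them Ifng, the type II interferon, higher (1.201 ± 0.22, adjusted p = 0.0286) and Jak1 lower (-0.47 ± 0.10, adjusted p = 0.0465); in DP cells none was called. Red cell and platelet markers moved with treatment: after isotype their sum was 2709 to 5310 CPM in DN and 1404 to 3286 CPM in DP libraries, and after blockade 0.759 to 119 and 4.46 to 18.9 CPM, with Hba-a2 at 0 in both blockade groups. Their part in the blockade values was not tested.

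**Figure D3:**
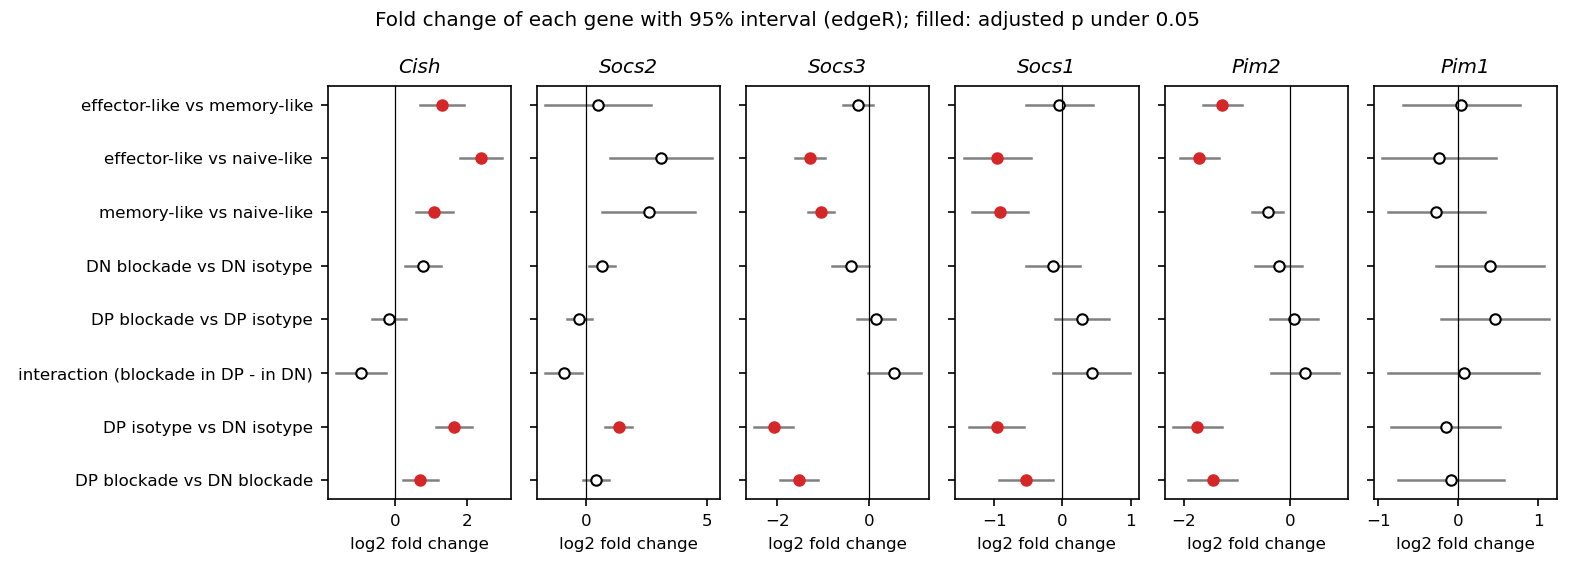
Log2 fold change of each gene (x axis, a scale of its own per panel) in the 8 comparisons, with 95% intervals from edgeR; filled points have an adjusted p under 0.05. Cish is filled to the right and Socs3 to the left of 0 in effector-like against naive-like and in DP against DN cells, and no point is filled for the 2 blockade comparisons or the interaction.

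On a scale per transcript length, the order of the 6 genes differed between groups. The deposited normalized signal, which for most genes checked is close to the count divided by transcript length, put Socs3 first in naive-like cells at 338 ± 49.4 units, ahead of Pim2 at 126 ± 11.3, Socs1 at 110 ± 23.6, Cish at 33.2 ± 7.70, Pim1 at 10.8 ± 2.66 and Socs2 at 1.59 ± 1.49. In effector-like cells Cish was first at 174 ± 71.0 units and Socs3 second at 139 ± 32.5. In DN isotype cells Socs3 led at 202 ± 36.9 units, while Cish was at 46.1 ± 15.8, and in DP isotype cells Cish led at 145 ± 26.5 units with Socs3 second at 48.3 ± 8.37. Socs2 and Pim1 held the 2 lowest places in all 7 groups.

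The ratio of Cish to Socs3 signal within a library was chosen after these values were seen and is given as a description. It lay between 0.0757 and 0.118 in naive-like, between 0.268 and 0.636 in memory-like and at 1.13, 1.08 and 1.45 in effector-like libraries. In the treatment experiment it was 0.316, 0.183 and 0.190 in DN isotype, 0.497, 0.336 and 0.847 in DN blockade, 2.52, 2.03 and 2.64 in DP blockade and 2.92, 3.02 and 3.07 in DP isotype libraries. No groups of an experiment overlapped on it. A scaling factor of a library cancels in this ratio.

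**Figure D4:**
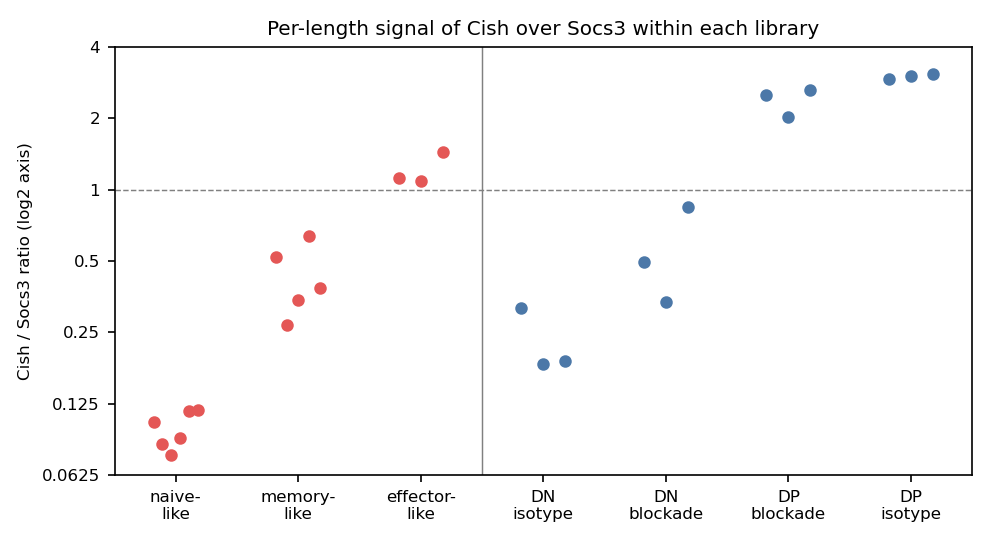
Ratio of the per-length signal of Cish to that of Socs3 (log2 axis) in each of the 26 bulk libraries; each point is a library, the dashed line marks equal signal and the vertical line parts the subset from the treatment experiment. Naive-like libraries lie lowest at 0.0757 to 0.118 and DP isotype libraries highest at 2.92 to 3.07.

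The genes whose log2 group means over the 7 groups, centred within each experiment, lay closest to each member were found among 11899 genes by the root mean square difference. Nearest to Cish were Atg9b at 0.13 log2 units, Bhlhe40, a transcription factor gene, at 0.14 and Pcyt1b at 0.16. Among the nearest to Socs3 were Abcg1, a cholesterol exporter gene, at 0.08 and Enpp4 at 0.12. Nearest to Pim2 were Ahr, the aryl hydrocarbon receptor gene, at 0.06, Slc25a53 at 0.11 and Il7r at 0.15, and nearest to Socs2 were Gdpd5 at 0.13, Fhl2 at 0.17 and Pbk at 0.18. Between members the smallest distances were 0.28 for Socs3 and Pim2, 0.36 for Socs1 and Pim1 and 0.41 for Socs1 and Socs3. The distance is not scaled by span, and Pim1 spanned 0.28 and 0.53 log2 units in the subset and treatment experiments. The centred means of Socs1 and Pim1 had opposite signs in DN isotype (0.44 and -0.18) and DP blockade cells (-0.23 and 0.20). Cish and Socs2 were 0.43 apart, and Cish and Socs3 were 1.53 apart. Socs1 and Pim1 spanned less than 1 log2 unit in an experiment, so no nearest genes are given for them.

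The single-cell table held 2963 cells with barcode suffix 1 and 2508 with suffix 2, of which 2950 and 2502 passed the filters, with a median of 3652 and 3839.5 UMIs (counted molecules) per cell. The labels number the isotype library 1 and the blockade library 2, but no file ties the suffix to that number, so values are given by suffix; 7 barcodes occur with both. With 1 library each there is no test, and intervals are exact Poisson intervals at 95% for summed UMIs and exact binomial (Clopper-Pearson) intervals for shares of cells, which cover counting error only. A UMI of at least 1 of the 6 genes was found in 81.0% of suffix 1 and 91.2% of suffix 2 cells.

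Cish was at 13.7 CPM of UMIs (11.7 to 15.9) with suffix 1 and at 37.7 CPM (34.3 to 41.2) with suffix 2, in 4.92% and 14.9% of cells. Socs2 was at 5.97 CPM (4.69 to 7.50) and 16.7 CPM (14.5 to 19.1), in 1.63% and 5.36% of cells, and Pim1 at 249 CPM (240.0 to 258) and 437 CPM (425 to 449), in 45.5% and 69.7%. These 3 genes were higher with suffix 2, and their intervals did not overlap. Socs3, at 218 (209.7 to 226) and 198 CPM (190.4 to 206), was lower with suffix 2, and its intervals did not overlap either. Over all cells, Socs1 was at 119 and 121 CPM and Pim2 at 49.3 and 55.0 CPM, with intervals that overlapped. The levels were also taken in the T cell clusters alone. These leave out the tumour and stroma-like, the myeloid-like and the Cd74-led clusters described below. Pim2 was then higher with suffix 2, at 53.4 CPM (49.2 to 57.8) and 65.4 CPM (60.6 to 70.6), without overlap. No other of the 6 genes changed its direction or the overlap of its intervals there. Every cell was also thinned to 1000 UMIs, for which no cell was too shallow. The shares were then 1.66% and 3.48% for Cish, 0.508% and 1.32% for Socs2 and 21.6% and 33.1% for Pim1. Thinned Socs3 did not differ by suffix, at 229.8 CPM (212.9 to 247.8) and 230.6 CPM (212.2 to 250.2), in 18.3% and 18.8% of cells. Unthinned, Socs3 had a UMI in 47.1% and 47.2% of cells. Thinned Pim2 over all cells was at 53.2 CPM (45.2 to 62.2) and 65.5 CPM (55.9 to 76.4), with intervals that overlapped. As a gauge of free RNA and other cells, Lyz2, a myeloid gene, had a UMI in 0.576% and 3.20% of cells and Hbb-bs, a red cell gene, in 4.03% and 5.60%. In the 59 cells of the tumour and stroma-like cluster named below, with a median of 28858 UMIs, Cish, Socs2 and Pim1 were at 2.90, 6.63 and 63.4 CPM and had a UMI in 11.9%, 8.47% and 47.5% of cells. Pim1 gave more UMIs than any other of the 6 genes with either suffix, while its per-length signal in bulk was among the 2 lowest; the assays count different parts of a transcript, and the part of this in the difference was not tested.

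Clustering without the 6 genes or the pathway genes among its variable genes gave 14 clusters. By marker genes, cluster 1 was interferon-responding-like (Ifit1, Ifit3, Isg15), cluster 4 effector T cell-like (Gzma, Klrg1, Cx3cr1), cluster 5 naive T cell-like (Dapl1, Lef1, Ccr7), cluster 11 cycling-like (Stmn1, Rrm2, Birc5), cluster 12 tumour and stroma-like (Krt8, Krt18) and cluster 14 myeloid-like (Lyz2, C1qa, C1qb); the others stay unnamed and are given by their leading genes. Cluster 13, of 35 cells, was led by H2-Aa, Cd74, Ly6d and Klk1. Over the 11 clusters other than 12, 13 and 14, Cish was lowest at 3.16 CPM in cluster 6 (2 UMIs in 226 cells). That cluster was led by Kmt2d and Pdcd4. Cish was highest, at 82.8 CPM (72.3 to 94.3), in cluster 3, which was led by haemoglobin genes, Cxcr6 and Ifitm1. It was at 54.7 CPM in the interferon-responding-like cluster 1, at 16.6 CPM (11.3 to 23.5) in cluster 9, which was also led by interferon-induced genes (Ifit3, Cxcl10, Usp18), and at 4.16 CPM (2.22 to 7.12) in the naive T cell-like cluster. Socs2 was also highest in cluster 3 at 32.8 CPM, and had a UMI in 0 of 885 cells of the naive T cell-like cluster, which allows a share of up to 0.339%. Haemoglobin and platelet markers summed to 1592 CPM in cluster 3, and Hbb-bs was at 19.3 CPM with suffix 1 and 194 CPM with suffix 2 over all cells, while in bulk these markers were higher after isotype; their part in the Cish and Socs2 levels was not tested. Cish UMIs were in 26.5% of cluster 3 cells and in 1.36% of naive T cell-like cells, at median depths of 3855 and 3446 UMIs. Cluster 3 held 35.6% of all Cish UMIs and 12.2% of the cells. The effector T cell-like cluster 4 held 1.88% of the Cish UMIs (12 of 637) and 2.18% of the cells. Its median depth was 2676 UMIs, 0.715 of that over all cells, so these shares do not compare Cish levels.

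Socs3 ran from 81.6 CPM in the cycling-like cluster and 100.3 CPM (88.8 to 113) in cluster 3 to 267 CPM (249 to 285) in the naive T cell-like cluster, 317 CPM in cluster 7, led by Klra genes and Ikzf2, and 337 CPM in cluster 9. So the cluster with the most Cish had the second lowest Socs3. Socs1 ranged from 58.9 CPM in the cycling-like cluster to 198 CPM in cluster 9. Pim2 ranged from 24.8 CPM in the effector T cell-like cluster (9 UMIs in 119 cells) to 100.1 CPM in cluster 9. Pim1 was at 109.8 CPM (98.5 to 122) in the naive T cell-like cluster and at 105 CPM in cluster 10, led by Izumo1r and Itgae, and reached 550.1 CPM in cluster 7. Outside these, the 35 cells of cluster 13 carried 58 of all 281 Socs2 UMIs (20.6%, against 0.642% of the cells), at 275 CPM (209 to 356), together with the highest Pim1 at 940.05 CPM (814 to 1080.5).

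Within clusters 3 and 2 the suffixes had like Cish levels, and within the cycling-like cluster they did not. In cluster 3, of 100 cells with suffix 1 and 563 with suffix 2, Cish was at 82.4 CPM (55.2 to 118) and 82.8 CPM (71.7 to 95.2), and in cluster 2, led by Ccl5 and Gzmk, with 338 and 514 cells, at 39.6 CPM (28.6 to 53.5) and 34.2 CPM (26.4 to 43.5). In the cycling-like cluster Cish was at 13.7 CPM (6.86 to 24.6) and 49.6 CPM (37.0 to 65.0), without overlap of the intervals. Il2 was also among the leading genes of this cluster of 239 cells. At Leiden resolution 0.5 the cycling cluster had 168 cells and Il2 was not among its leading genes. The part of Il2-expressing cells in the Cish gap was not tested. Pim1 was at 498 and 499 CPM in cluster 2, and in cluster 8, with Gzmm and Klf2 among its leading genes, at 238 CPM (221 to 257) and 559 CPM (502 to 621). The naive T cell-like cluster, which was low in Cish, held 853 cells with suffix 1 and 32 with suffix 2. The part of these unlike cluster shares in the Cish levels by suffix was not tested. With 1 library each, a cluster mostly of 1 suffix may reflect that library.

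**Figure D5:**
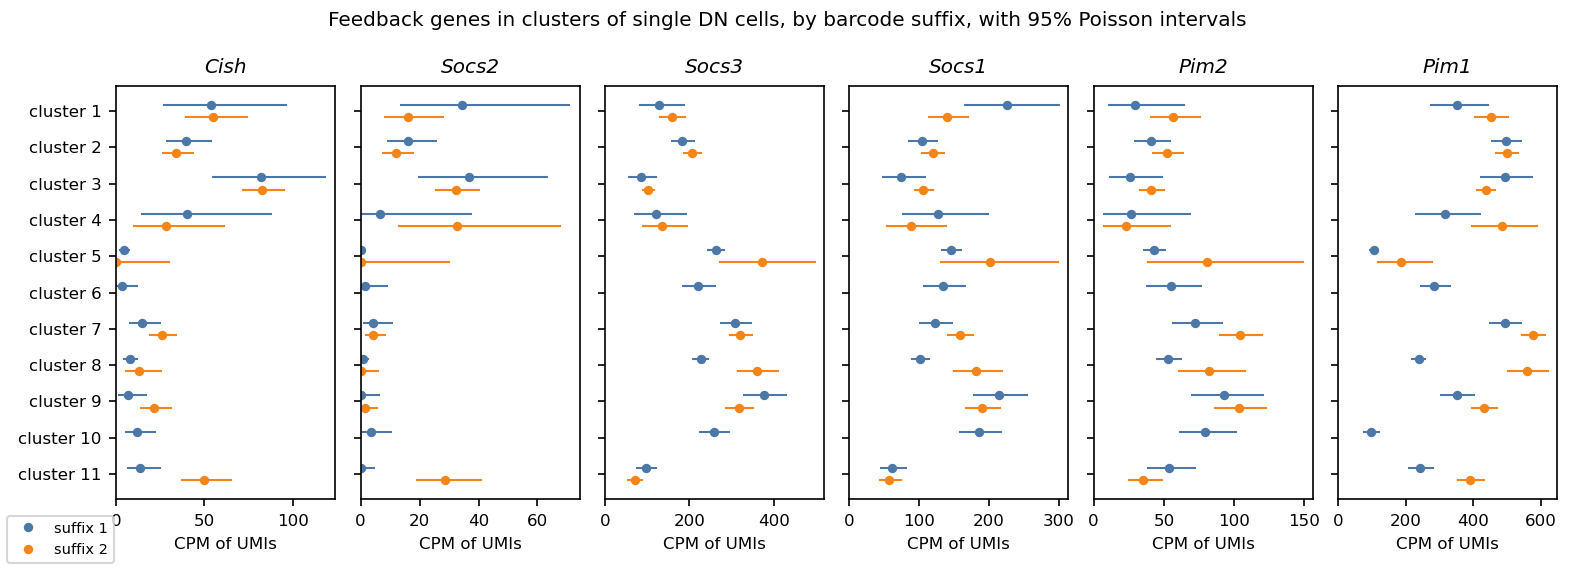
CPM of UMIs of each gene (x axis, linear, a scale of its own per panel) in clusters 1 to 11, by barcode suffix, with 95% Poisson intervals; groups of under 20 cells are left out. Cish is highest in cluster 3 for both suffixes, at 82.4 and 82.8 CPM, and Socs3 is low there, at 85.2 and 102 CPM.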

How the data were processed

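Per the labels' protocols, about 2000 cells were lysed for each bulk library, which followed a modified SMART-Seq2 procedure, and single cells were run on the 10x Chromium 3' kit. TopHat, RSEM and DESeq with mm9 (bulk) and Cell Ranger 1.3 with mm10 (single cells) are named in the submitters' processing notes, with no role or order. The deposited bulk tables hold expected counts with no scaling, of which 22.6% and 30.5% were not whole. The deposited normalized tables hold a signal that tracked the counts of a gene across libraries to within 1% in all 4552 and 5874 genes checked, after 1 factor per library, and whose value per count and base lay within 25% of the median for 80.4% of 392 and 81.0% of 515 genes with 1 annotated transcript. The deposited single-cell table holds counts of UMIs, with the samples told apart by barcode suffix alone.

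Expected counts were rounded and each experiment fitted with the quasi-likelihood test of edgeR 4.0.16 (group means, TMM scaling, filterByExpr, no block) on 12388 and 12710 genes; 4 rows with repeated names were left out. DESeq2 1.42.0 was an alternative. The 6 genes, the pathway lists and the marker lists were chosen with earlier results of these data known; the named genes are all 6, up to 3 called genes per direction and pathway class with the smallest p, a fixed set of receptor and STAT genes (among them Il2ra, Il2rb, Il7r, Il4ra, Stat3, Stat4, Stat5a and Stat5b), and the 3 genes nearest to a member; some of these are not reported here. By title number, the 3 pairs of DN isotype and DN blockade libraries deviated together (correlations of 0.122 to 0.383), so a block was tried; it changed no call of the 6 genes. For no other numbering did every pair exceed a correlation of 0.1.

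Cells under 500 genes or over 10% of mitochondrial UMIs were removed, the rest kept (5452 of 5471) and clustered with scanpy 1.11.5 (2000 variable genes, 30 components, 15 neighbours, Leiden at resolution 1). Doublets were not removed, and no caller was run. Promoter sequences are RefSeq's. Protein sequences were not used here. No coordinates were taken from the bulk files, whose build differs from the reference. Alternatives were another normalization, DESeq2, no filter, only the groups compared, single libraries left out, Rn45s left out, a replicate block and no libraries that stood apart (memory-like 2, naive-like 4 and 6).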

Additional observations from a re-analysis of the deposited data

Results flagged for a closer look

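The Cish to Socs3 signal ratio was higher after blockade in all 3 DN libraries (0.336 to 0.847 against 0.183 to 0.316) and lower in all 3 DP libraries (2.03 to 2.64 against 2.92 to 3.07). The differences of the log2 means were 1.23 and -0.33, each with a two-sided exact permutation p of 0.1, the smallest that 3 against 3 allow (0.108 after Benjamini-Hochberg adjustment over 14 ratio comparisons), so neither passed. They differ by -1.56 log2 units; this difference was not tested, and the ratio was chosen after its values were seen; the interaction of neither gene alone passed the threshold (adjusted p of 0.416 for Cish and 0.604 for Socs3, edgeR). No library of the 6 genes stood apart in the 12 checks of a memory-like or naive-like group.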

How the results depend on the processing

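Over the 9 settings that refit the bulk data, 320 of 330 member tests kept their direction and their side of the threshold, 6 newly passed it, 4 no longer passed it and none reversed. Of 384 member tests with 1 library left out, 366 kept both, 17 no longer passed and 1 newly passed. The number of members called went to 1 between effector-like and memory-like cells with only these groups fitted and without the 3 libraries that stood apart (Cish adjusted p of 0.0639 and 0.0551), to 5 between memory-like and naive-like cells with DESeq2, and to 1 after blockade in DN cells with DESeq2. DESeq2 also newly called Socs2 between effector-like and naive-like cells (adjusted p = 0.0219). With 1 library left out the number of members called ranged from 1 to 2 between effector-like and memory-like cells. It ranged from 3 to 4 between effector-like and naive-like and from 2 to 4 between memory-like and naive-like cells. Between DP and DN cells after blockade it ranged from 2 to 3. With only the groups compared, the Socs1 difference between effector-like and naive-like cells missed the threshold (adjusted p = 0.0523). The replicate block changed the number of members called nowhere: with the block by title number Cish in DN cells after blockade had an adjusted p of 0.140, and 59 in place of 142 genes of the table were called (21 with only the DN libraries fitted, an alternative chosen after seeing the data). DN and DP libraries that share a number in their names had correlations of -0.01 to 0.33 after isotype and 0.06 to 0.15 after blockade; after blockade 3 of 3 correlated best with their own number, a hint from the data and not from the labels, and that block left 5 and 4 members called.

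Counts over all genes moved more. DESeq2 called 533, 1270 and 1308 genes in the 3 subset comparisons and 522, 49 and 98 for blockade in DN, in DP and the interaction, against 237, 795, 683, 142, 8 and 0. Without a filter the last 3 were 224, 17 and 7, and with only the groups compared the first 2 of these were 2 and 16. The block by title number gave 123 between effector-like and memory-like cells, 4 in DP cells and 1 for the interaction, and the block by library name 186 between memory-like and naive-like cells and 1 for the interaction; without the 3 libraries, 1319 genes were called between effector-like and naive-like cells. With 1 library left out, the counts ranged from 105 to 215 between effector-like and memory-like, from 484 to 1068 between effector-like and naive-like and from 340 to 815 between memory-like and naive-like cells, from 2880 to 4041 and from 2386 to 3143 between DP and DN cells after isotype and blockade, from 22 to 229 and from 3 to 9 for blockade in DN and DP cells and from 0 to 3 for the interaction. They moved by over 1.5 times without effector-like replicate 1 or 2 or memory-like replicate 1 or 3 in at least 1 of the subset comparisons, without DN blockade replicate 1 or 3 or any DN isotype library for blockade in DN cells, and without DP blockade replicate 1 or 2 or DP isotype replicate 1 or 3 in DP cells; 1 and 3 genes were called for the interaction without DN blockade replicates 1 and 3. Of 42 single-cell levels recomputed, 23 stayed within their counting interval and 19 did not. Depth limits Socs2 and Pim1 most, with 0 to 319 and 65 to 204 counts per bulk library.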
